A study of Homo sapiens with 12 samples.

Results

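CRTAP and 9 further genes of collagen modification were followed in human cells that lacked TAF5 or expressed TAF5 with or without its exon 8. The 10 genes, of 32010 in the deposited table, were taken by name: CRTAP, P3H1, P3H2, P3H3, P3H4, PPIB, PLOD1, PLOD2, PLOD3 and SERPINH1. The list was chosen by the measured level of CRTAP, which was lower with TAF5 lacking exon 8 than with full-length TAF5, so values that set those groups against each other are given as a description with no p-value, and counts of genes past the threshold there are also only a description. The other 9 were added for their shared role. All 10 were among the 19424 genes kept by a filter on low counts.

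The cells were HEK293 Flp-In, a human embryonic kidney line with a genomic site at which a transgene can be inserted. TAF5 is a subunit of TFIID, the complex that recognises core promoters and helps RNA polymerase II to start transcription. In the TAF5-ΔE8 group, endogenous TAF5 was depleted with an siRNA and siRNA-resistant TAF5 without exon 8 was induced with doxycycline. The TAF5-FL group was treated in the same way but expressed full-length TAF5. The siTAF5 group had the TAF5 siRNA and no transgene is named for it, and the siNT group had a non-targeting siRNA. The labels name siRNA plus doxycycline for all 12 libraries, 3 per group. The siRNA was in place for 24 h before doxycycline, and RNA was taken after a further 48 h. The study asked if TAF5 regulates transcription through its exon 8.

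Several features limit these groups as a model. The labels name 1 TAF5 siRNA, do not say which line the siTAF5 and siNT cells were, and give the TAF5-ΔE8 and TAF5-FL lines different doxycycline doses, so that isoform, line and dose cannot be told apart. With 1 TAF5 siRNA, loss of TAF5 and other effects of that siRNA cannot be told apart either. The dose figures in the labels appear to have lost an exponent sign and are not printed. The labels do not tell whether replicates came from separate cultures, and p-values therefore cover only the variation among these libraries, which may be technical. Library totals ran from 41.8 to 62.5 M estimated counts. Levels are given as CPM, a gene's count set against the size of its library after TMM scaling, so that libraries can be compared. TAF5 itself stood at 87.6, 87.5 and 88.9 CPM in TAF5-ΔE8 libraries, 103, 106 and 107 in TAF5-FL, 6.13, 7.35 and 6.68 in siTAF5 and 39.2, 40.5 and 40.2 in siNT. The depletion thus showed in all 3 siTAF5 libraries, and TAF5 RNA was above the siNT level in both transgene groups and lower in TAF5-ΔE8 than in TAF5-FL. The 7 markers of HEK293 cells summed to 2236 to 2302 CPM in TAF5-ΔE8, 1947 to 2011 in TAF5-FL, 2096 to 2184 in siTAF5 and 1908 to 1974 in siNT. VIM made up most of these sums, at 1532 CPM in TAF5-ΔE8 and 1093 in siNT, while NEFM and NEFH were below 2 CPM in every library. The markers did not move together: in siTAF5 against siNT, 2 rose and 4 fell, among them VIM (log2 0.33) and KRT8 (log2 -0.19). Of 8 markers of fibroblasts, which make much collagen, only PDGFRA passed the filter, and the 8 together reached 2.16 to 2.58 CPM in TAF5-ΔE8, 2.17 to 2.51 in TAF5-FL, 2.74 to 3.56 in siTAF5 and 2.63 to 2.77 in siNT. DCN, a defining fibroblast gene, had at most 2 counts in any library.

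Collagen chains are modified in the endoplasmic reticulum before they fold into a triple helix. CRTAP, P3H1 and cyclophilin B, the product of PPIB, form a complex that adds a hydroxyl group to carbon 3 of particular prolines in fibrillar collagens, and inherited loss of any of these causes brittle bone disease. Lysyl hydroxylases, encoded by the PLOD genes, modify lysines that later carry sugars and cross-links. HSP47, encoded by SERPINH1, is a chaperone that binds the folded procollagen helix. In the siNT libraries, all of these genes were transcribed. Per kilobase of annotated exon, the siNT level was highest for PPIB at 91.1 CPM per kb and next for CRTAP at 37.5. P3H4 and PLOD1 were both at 21.8, SERPINH1 at 17.5, PLOD2 at 14.3, P3H3 at 11, PLOD3 at 8.23 and P3H1 at 7.6, and P3H2 was lowest at 1.74.

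Because TAF5 belongs to a complex that acts at transcription start sites, the promoters of CRTAP and its partner P3H1 are shown, the members with the largest absolute log2 differences in siTAF5 against siNT and in TAF5-ΔE8 against TAF5-FL. Both are printed from 250 bases before to 50 bases after the annotated start, from RefSeq on GRCh38.p14, with matches to GGGCGG or its reverse complement in capitals. The CRTAP window is chr3:33113764-33114063 on the plus strand and the P3H1 window is chr1:42766979-42767278 on the minus strand, each written 5′ to 3′ along the gene.
CRTAP promoter: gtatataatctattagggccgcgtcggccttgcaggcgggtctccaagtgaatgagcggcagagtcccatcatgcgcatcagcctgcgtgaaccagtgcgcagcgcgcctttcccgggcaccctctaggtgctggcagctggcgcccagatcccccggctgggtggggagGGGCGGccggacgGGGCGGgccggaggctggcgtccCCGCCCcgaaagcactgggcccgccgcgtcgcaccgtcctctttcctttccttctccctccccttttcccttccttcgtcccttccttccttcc
P3H1 promoter: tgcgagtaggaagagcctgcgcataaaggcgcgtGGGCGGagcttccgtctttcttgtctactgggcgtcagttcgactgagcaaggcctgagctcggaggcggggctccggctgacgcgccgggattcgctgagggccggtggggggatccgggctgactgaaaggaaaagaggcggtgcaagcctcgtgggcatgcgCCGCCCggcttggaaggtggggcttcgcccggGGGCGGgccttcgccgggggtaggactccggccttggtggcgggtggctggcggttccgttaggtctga
The CRTAP window holds GGGCGG at 80 and 67 bases before the start and its reverse complement at 44 bases before it. The P3H1 window holds GGGCGG at 216 and 19 bases before the start and the reverse complement at 51. RefSeq promoters were found for 9 of the 10 members, 11 windows in all. P3H4 was the member without one. On either strand, GGGCGG was present in 8 of these 11 windows and in 45.0% of 35116 human promoters. CCAAT was present in 4 windows and in 34.6% of all promoters, and TATAAA in 0 windows and in 11.5% of all promoters. None of these 3 patterns is part of another, and a match is only a description of the letters.

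CRTAP, a protein without enzyme activity that holds P3H1 in the complex, was the member that moved most. It lies on chromosome 3, at chr3:33114014-33147773 on the plus strand of hg38. The TAF5-ΔE8 libraries held 92.9, 93.9 and 88.5 CPM, the TAF5-FL libraries 179.9, 172 and 167, the siTAF5 libraries 110.2, 113 and 108 and the siNT libraries 261, 246 and 246. No 2 groups overlapped, and the order was siNT, TAF5-FL, siTAF5 and TAF5-ΔE8 from high to low. Set against the siNT mean, CRTAP stood at 36.6% in TAF5-ΔE8, 69% in TAF5-FL and 44.1% in siTAF5. In these bulk libraries, fewer cells of a kind and less RNA per cell cannot be told apart.

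The libraries by which CRTAP was chosen shared in the scaling and the estimate of spread for every comparison. Depletion of TAF5 was the one comparison whose groups did not include them. There CRTAP fell 2.27-fold, to 111 ± 2.74 CPM in siTAF5 against 251 ± 8.53 CPM in siNT (SD, n = 3 each). The log2 fold change was -1.18 with a standard error of 0.032 (edgeR quasi-likelihood test, Benjamini-Hochberg adjusted p = 1.17e-15). Among 12476 genes with a mean log2 CPM of at least 2, it was the 8th lowest log2 fold change of that comparison.

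With a transgene, CRTAP took a different place for each isoform. It averaged 91.8 ± 2.85 CPM in TAF5-ΔE8 and 173 ± 6.38 CPM in TAF5-FL (SD, n = 3 each), a log2 difference of -0.91 with a standard error of 0.033, and the 5th lowest among the same 12476 genes. Relative to siTAF5, the log2 difference was -0.27 in TAF5-ΔE8 and 0.65 in TAF5-FL, so the libraries of the isoforms lay on opposite sides of the siTAF5 libraries. Relative to siNT, it was -1.45 in TAF5-ΔE8 and -0.53 in TAF5-FL, which left CRTAP below every siNT library in both. These values share control libraries and the libraries that chose CRTAP, and no test is attached to them. TAF5 RNA was also lower in TAF5-ΔE8 than in TAF5-FL, by a log2 difference of -0.26, and the part of TAF5 level in the CRTAP difference was not tested. Against siTAF5, the log2 difference of TAF5 RNA was 3.70 in TAF5-ΔE8 and 3.96 in TAF5-FL, and against siNT it was 1.14 in TAF5-ΔE8 and 1.39 in TAF5-FL. The TAF5 and CRTAP differences had the same sign in TAF5-FL against siTAF5, siTAF5 against siNT and TAF5-ΔE8 against TAF5-FL. In the other comparisons the signs differed. The transgene groups express different isoforms of TAF5, so their TAF5 levels are not levels of the same product, and these signs are only a description.

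**Figure D1:**
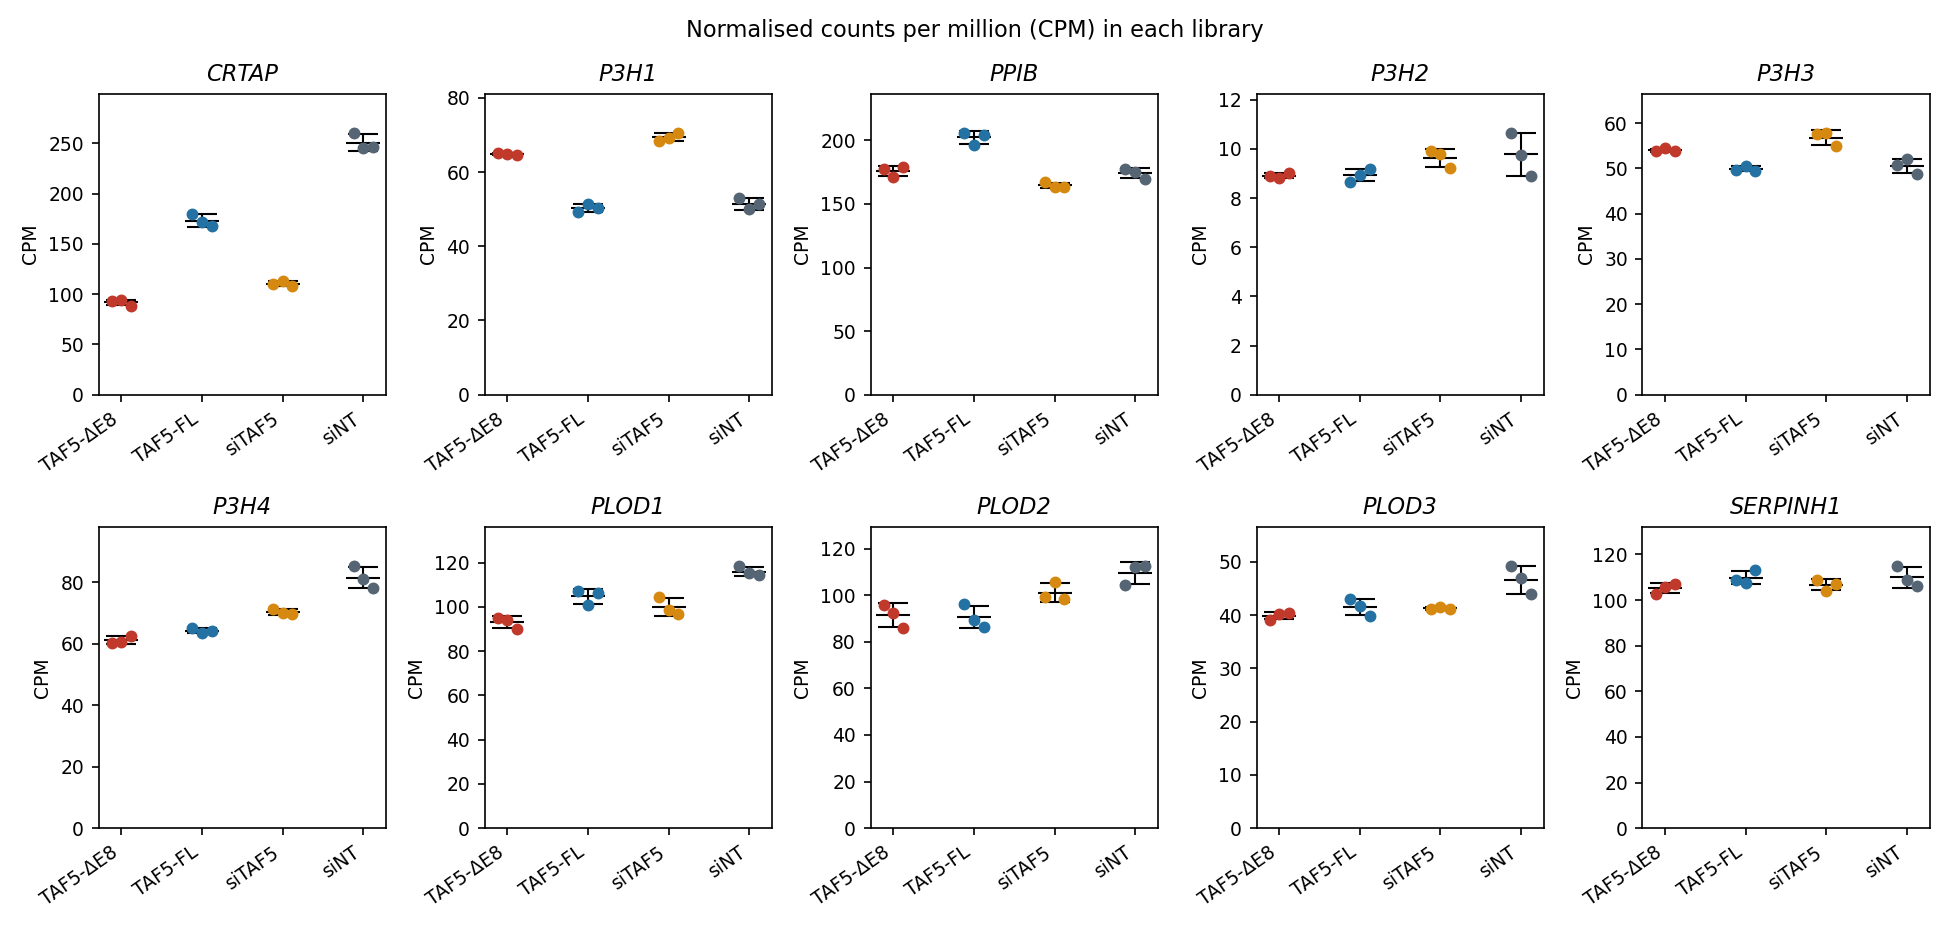
Normalised level in CPM of each of the 10 genes in each of the 12 libraries (points), with the mean and SD of 3 libraries per group (lines); each panel has its own axis from 0. CRTAP is below all siNT libraries in the other 3 groups and lowest in TAF5-ΔE8, while P3H1 is higher in TAF5-ΔE8 and siTAF5 than in TAF5-FL and siNT.

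P3H1, the prolyl 3-hydroxylase that acts in the complex with CRTAP, moved against it in most comparisons. The log2 differences of both genes were negative in TAF5-FL against siNT and in TAF5-ΔE8 against siTAF5. P3H1 is at chr1:42746335-42767084 on the minus strand. Its level was 65, 64.9 and 64.6 CPM in TAF5-ΔE8, 49.3, 51.3 and 50.2 in TAF5-FL, 68.3, 69.2 and 70.6 in siTAF5 and 52.9, 49.9 and 51.3 in siNT. All TAF5-ΔE8 and siTAF5 libraries were above all TAF5-FL and siNT libraries. With TAF5 depletion, P3H1 was 1.35-fold higher, at 69.4 ± 1.13 CPM in siTAF5 against 51.4 ± 1.51 CPM in siNT (log2 0.43, SE 0.029, edgeR adjusted p = 3.28e-10). In TAF5-FL it fell relative to siTAF5 (log2 -0.47, SE 0.03, edgeR adjusted p = 1.36e-10), to a level whose difference from siNT did not pass the test, with a 95% interval of -0.097 to 0.03 on the log2 scale. TAF5-ΔE8 stayed above siNT (log2 0.34, SE 0.029, edgeR adjusted p = 4.40e-09) and was slightly below siTAF5 (log2 -0.097, edgeR adjusted p = 0.0109). That small decrease did not pass the test without siTAF5 replicate 3 (edgeR adjusted p = 0.0820). Between TAF5-ΔE8 and TAF5-FL, the log2 difference was 0.37 with a standard error of 0.03. Among the same 12476 genes as for CRTAP, P3H1 ranked 536th from the highest in siTAF5 against siNT. In TAF5-ΔE8 against TAF5-FL it ranked 371st from the highest.

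The balance of CRTAP and P3H1 within each library differed between the groups. Per kilobase of exon, the ratio of CRTAP to P3H1 was 1.44, 1.46 and 1.38 in TAF5-ΔE8, 3.69, 3.38 and 3.37 in TAF5-FL, 1.63, 1.66 and 1.55 in siTAF5, and 4.98, 4.97 and 4.85 in siNT. It averaged 1.43 ± 0.040 in TAF5-ΔE8 and 3.48 ± 0.183 in TAF5-FL (SD, n = 3 each). The siTAF5 mean was 1.61 ± 0.0574, against 4.93 ± 0.0725 in siNT (SD, n = 3 each). No 2 groups overlapped, and no test is attached because the ratio contains CRTAP.

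PPIB, whose product cyclophilin B is the prolyl isomerase of the complex, was highest in the TAF5-FL libraries. The gene is at chr15:64155740-64163134 on the minus strand. It stood at 178, 172 and 179 CPM in TAF5-ΔE8, 206, 197 and 204 in TAF5-FL, 167, 164 and 164 in siTAF5 and 177, 175 and 169.9 in siNT. The TAF5-FL libraries were above all 9 others. PPIB rose in TAF5-FL relative to siTAF5 (log2 0.30, SE 0.026, edgeR adjusted p = 1.24e-08) and relative to siNT (log2 0.22, SE 0.026, edgeR adjusted p = 6.82e-07). TAF5-ΔE8 was above siTAF5 by less (log2 0.095, edgeR adjusted p = 0.00668), and its difference from siNT did not pass, with a 95% interval of -0.04 to 0.069 on the log2 scale. The log2 difference between TAF5-ΔE8 and TAF5-FL was -0.20 with a standard error of 0.026. The fall in siTAF5 relative to siNT was small (log2 -0.08, edgeR adjusted p = 0.0152). It did not pass without siNT replicate 1 (adjusted p = 0.0622) or with libraries scaled by their totals only (adjusted p = 0.129). CRTAP, P3H1 and PPIB, the members of the CRTAP complex, thus each had a different order of the 4 groups.

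**Figure D2:**
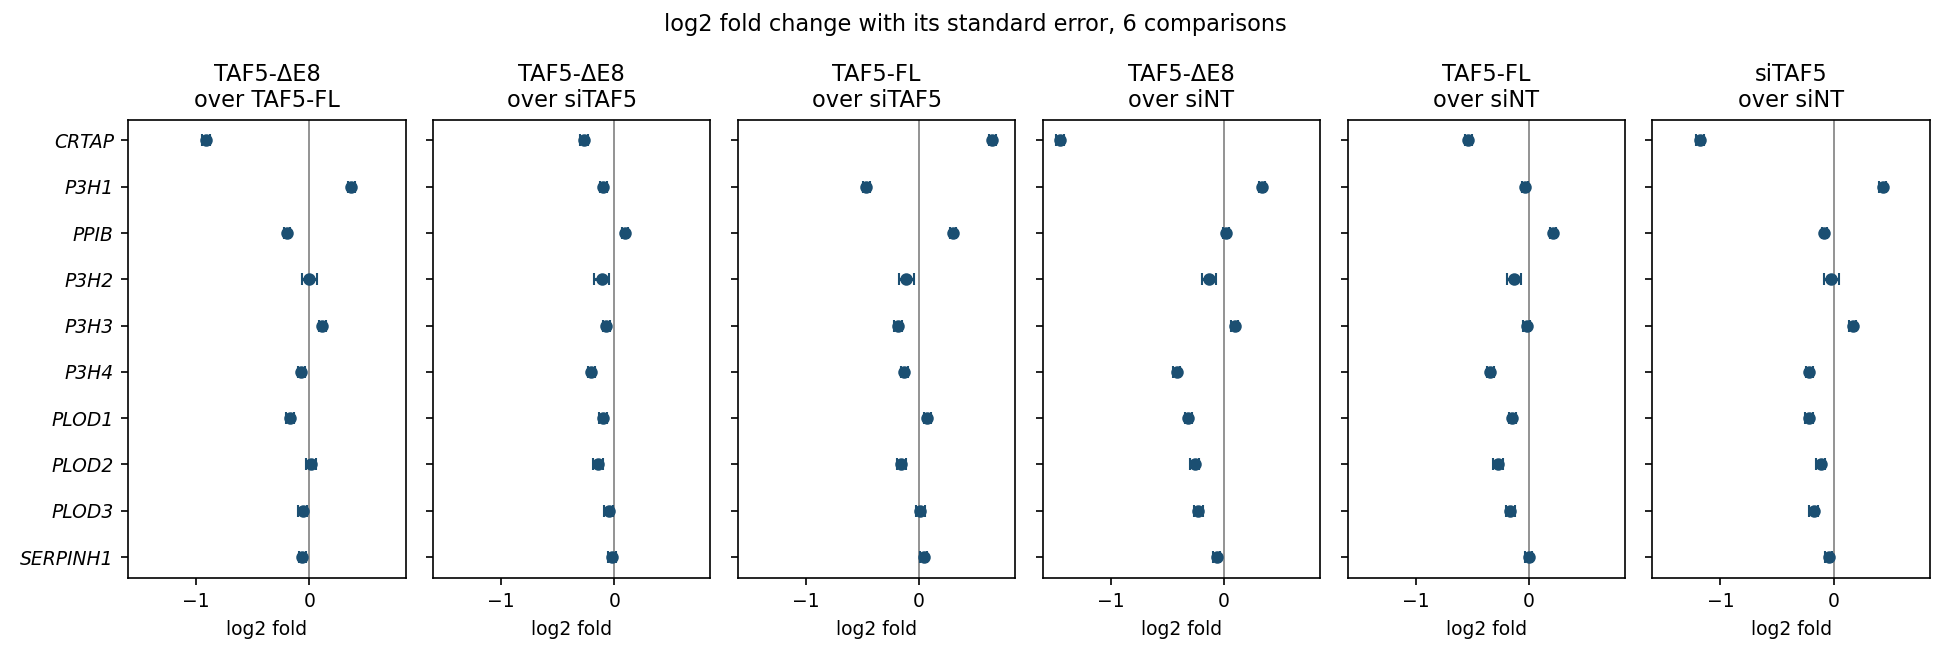
Log2 fold change (points) with its standard error (bars) for the 10 genes in each of 6 comparisons, from 1 fit over the 12 libraries. CRTAP lies left of 0 in every panel except TAF5-FL over siTAF5, P3H1 lies on the other side of 0 from CRTAP in 4 of the 6 panels, and the remaining genes stay between -0.42 and 0.30.

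P3H3 and P3H4 encode a related prolyl 3-hydroxylase and a protein without hydroxylase activity that are known, from mouse, to form a complex with lysyl hydroxylase 1. P3H3, at chr12:6828407-6839847 on the plus strand, was at 53.7, 54.4 and 53.7 CPM in TAF5-ΔE8, 49.6, 50.5 and 49.5 in TAF5-FL, 57.5, 57.8 and 54.9 in siTAF5 and 50.6, 52.1 and 48.8 in siNT. The siTAF5 libraries were the highest and the TAF5-FL and siNT libraries overlapped. P3H3 rose with TAF5 depletion (log2 0.17, SE 0.031, edgeR adjusted p = 0.000157) and fell in TAF5-FL relative to siTAF5 (log2 -0.19, SE 0.032, edgeR adjusted p = 6.05e-05), the same directions as P3H1 with smaller log2 changes. It was also higher in TAF5-ΔE8 than in siNT (log2 0.096, edgeR adjusted p = 0.0125). That call was lost without TAF5-ΔE8 replicate 2 (adjusted p = 0.0566), without siNT replicate 3 (adjusted p = 0.0872), with no filter on low counts (adjusted p = 0.0952) and with upper-quartile scaling (adjusted p = 0.155). For TAF5-ΔE8 against siTAF5, the log2 difference of -0.072 did not pass (edgeR adjusted p = 0.0755), but it did with library totals only (adjusted p = 0.0249) and with upper-quartile scaling (adjusted p = 0.0184). Between TAF5-ΔE8 and TAF5-FL the log2 difference was 0.11, with a standard error of 0.032.

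P3H4, at chr17:41801947-41812604 on the minus strand, went down in every group with the TAF5 siRNA. Its level was 60.3, 60.6 and 62.6 CPM in TAF5-ΔE8, 65.1, 63.4 and 64.3 in TAF5-FL, 71.4, 70.0 and 69.7 in siTAF5 and 85.2, 81.2 and 78.3 in siNT, with no overlap between any 2 groups. The order from high to low was siNT, siTAF5, TAF5-FL and TAF5-ΔE8, so the TAF5-FL libraries were farther from siNT than the siTAF5 libraries were. It fell in siTAF5 relative to siNT (log2 -0.21, SE 0.031, edgeR adjusted p = 7.74e-06). It also fell relative to siTAF5 in TAF5-FL (log2 -0.13, edgeR adjusted p = 0.00195) and in TAF5-ΔE8 (log2 -0.20, edgeR adjusted p = 3.38e-05). Relative to siNT, it was lower by 1.33-fold in TAF5-ΔE8 (edgeR adjusted p = 4.30e-10) and by 1.27-fold in TAF5-FL (edgeR adjusted p = 1.56e-08). The log2 difference between TAF5-ΔE8 and TAF5-FL was -0.074 with a standard error of 0.032.

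P3H2, at chr3:189956728-190122437 on the minus strand, encodes a prolyl 3-hydroxylase with a preference for basement membrane collagen, and it was the least abundant member. Its level was 8.91, 8.8 and 9.02 CPM in TAF5-ΔE8, 8.67, 8.94 and 9.16 in TAF5-FL, 9.9, 9.8 and 9.21 in siTAF5 and 10.7, 9.75 and 8.91 in siNT. The siNT libraries spread over the range of the other groups. None of the 5 tested comparisons passed the threshold, the smallest edgeR adjusted p being 0.0828 for TAF5-ΔE8 against siNT. Without siNT replicate 3, P3H2 was lower than siNT in TAF5-ΔE8 (adjusted p = 0.0144) and in TAF5-FL (adjusted p = 0.0184), and with upper-quartile scaling the adjusted p was 0.0250 for TAF5-ΔE8 and 0.0408 for TAF5-FL. With all libraries, the 95% interval of the log2 difference from siNT was -0.27 to 0.0029 for TAF5-ΔE8 and -0.27 to 0.0049 for TAF5-FL.

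The lysyl hydroxylases fell with TAF5 depletion and stayed below siNT with either isoform. PLOD1, at chr1:11934205-11975538 on the plus strand, encodes the enzyme for lysines of the triple helix. It was at 95.1, 94.1 and 90.2 CPM in TAF5-ΔE8, 107, 101 and 106 in TAF5-FL, 104, 98.7 and 96.6 in siTAF5 and 118, 115 and 114 in siNT. All siNT libraries were above all others, and the TAF5-FL and siTAF5 libraries overlapped. PLOD1 fell in siTAF5 relative to siNT (log2 -0.22, SE 0.032, edgeR adjusted p = 1.04e-05). Against siNT, the log2 change was -0.32 in TAF5-ΔE8 (edgeR adjusted p = 3.83e-08) and -0.14 in TAF5-FL (edgeR adjusted p = 0.000702). TAF5-ΔE8 was also below siTAF5 (log2 -0.099, edgeR adjusted p = 0.0196), which did not pass without TAF5-ΔE8 replicate 3 (adjusted p = 0.122) or without siTAF5 replicate 1 (adjusted p = 0.183). For TAF5-FL against siTAF5 the log2 difference of 0.072 did not pass (edgeR adjusted p = 0.0724), but it did without TAF5-FL replicate 2 (adjusted p = 0.0234) and without siTAF5 replicate 1 (adjusted p = 0.0117). The log2 difference between TAF5-ΔE8 and TAF5-FL was -0.17, with a standard error of 0.033.

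PLOD2, at chr3:146069440-146163653 on the minus strand, encodes the enzyme for lysines of the telopeptides, from which cross-links form. It was at 95.8, 92.5 and 85.8 CPM in TAF5-ΔE8, 96, 89.3 and 86.5 in TAF5-FL, 99.2, 106 and 98.6 in siTAF5 and 104, 112 and 112 in siNT. The TAF5-ΔE8 and TAF5-FL libraries covered almost the same range, below all siTAF5 and siNT libraries. PLOD2 was lower than siNT by a log2 value of -0.26 in TAF5-ΔE8 (edgeR adjusted p = 2.16e-05) and -0.27 in TAF5-FL (edgeR adjusted p = 1.89e-05). It was lower than siTAF5 in TAF5-FL (log2 -0.16, edgeR adjusted p = 0.00506) and in TAF5-ΔE8 (log2 -0.14, edgeR adjusted p = 0.0106). The TAF5-ΔE8 call was lost without TAF5-ΔE8 replicate 3 (adjusted p = 0.0942) and without siTAF5 replicate 2 (adjusted p = 0.0999). In siTAF5 against siNT the libraries overlapped, and the log2 value of -0.12 (edgeR adjusted p = 0.0286) did not pass without siNT replicate 2 (adjusted p = 0.102) or 3 (adjusted p = 0.108), without siTAF5 replicate 1 (adjusted p = 0.0516) or 3 (adjusted p = 0.0706), or with library totals only (adjusted p = 0.109). Between TAF5-ΔE8 and TAF5-FL the log2 difference was 0.012, with a 95% interval of -0.079 to 0.10.

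PLOD3, at chr7:101205977-101218420 on the minus strand, encodes a lysyl hydroxylase that also transfers sugars to hydroxylysine. It was at 39.1, 40.1 and 40.5 CPM in TAF5-ΔE8, 43, 41.7 and 39.9 in TAF5-FL, 41.2, 41.6 and 41.1 in siTAF5 and 49.2, 46.9 and 43.9 in siNT. The siNT libraries were the highest and the 3 other groups lay close together. PLOD3 fell relative to siNT in siTAF5 (log2 -0.17, SE 0.039, edgeR adjusted p = 0.000818), in TAF5-ΔE8 (log2 -0.23, edgeR adjusted p = 4.06e-05) and in TAF5-FL (log2 -0.16, edgeR adjusted p = 0.0013). Neither isoform differed from siTAF5 past the threshold, with 95% intervals on the log2 scale of -0.13 to 0.032 for TAF5-ΔE8 and -0.073 to 0.093 for TAF5-FL.

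SERPINH1, the chaperone gene at chr11:75562056-75572783 on the plus strand, did not pass in any tested comparison. It was at 103, 106 and 107 CPM in TAF5-ΔE8, 109, 108 and 113 in TAF5-FL, 109, 104 and 107 in siTAF5 and 115, 109 and 106 in siNT. The siNT libraries overlapped with those of each other group. In siTAF5 against siNT, the 95% interval of the log2 difference was -0.11 to 0.022. The smallest edgeR adjusted p was 0.0848, for TAF5-ΔE8 against siNT (log2 -0.063). That comparison passed without TAF5-ΔE8 replicate 3 (adjusted p = 0.0422), without siNT replicate 3 (adjusted p = 0.0264), with no filter on low counts (adjusted p = 0.0331) and with upper-quartile scaling (adjusted p = 0.0072).

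Counted over the members, 8 of 10 passed with TAF5 depletion, with CRTAP, P3H4, PLOD1, PLOD2, PLOD3 and PPIB lower and P3H1 and P3H3 higher in siTAF5 than in siNT. Of all genes tested there, 49.7% passed, 24.7% higher and 25% lower. The median log2 fold change was -0.098 over the members and 0.00022 over all genes. The median absolute log2 change was 0.17 over the 10 members, with 0.19 over all genes. The count of members ran from 6 to 8 over the alternatives, and with library totals only 2 were higher and 4 lower. Leaving CRTAP out, 5 of 9 members passed in TAF5-FL against siTAF5, where 48.8% of all genes did, and 5 of 9 in TAF5-ΔE8 against siTAF5, where 40.6% did. The count for TAF5-ΔE8 against siTAF5 was 3 without TAF5-ΔE8 replicate 3. Relative to siNT, 6 of 9 members passed in TAF5-ΔE8 against 62.2% of all genes, and 5 of 9 in TAF5-FL against 54.6% of all genes. In TAF5-ΔE8 against TAF5-FL, 5 of 10 members were past the same threshold and 37% of all genes were, which is given without a reading since the choice of CRTAP used that contrast. A change of call in 1 or 2 members would bring the share of members to or below that of all genes in each of the 4 comparisons of a transgene group with siTAF5 or siNT. The median absolute log2 change of the 9 members other than CRTAP was 0.13 in TAF5-FL against siTAF5, with 0.20 over all genes, and 0.23 in TAF5-ΔE8 against siNT, with 0.28 over all genes.

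Beyond the members, 37 further genes of collagen folding, export, trimming and cross-linking were all kept by the filter, and with TAF5 depletion their counts were near the shares of all genes. Of the 37, CREB3L1 and ADAMTS14 were near the floor, at 4 to 16 and 3 to 19 counts per library. Both were highest in siNT, which helped them past the filter. In siTAF5 against siNT, 9 of the 37 rose and 11 fell, where 24.7% of all genes rose and 25% fell. CALR, an endoplasmic reticulum chaperone, rose to 779 ± 21.4 CPM in siTAF5 against 580.1 ± 15.8 CPM in siNT (SD, n = 3 each; log2 0.43, edgeR adjusted p = 7.72e-11). MIA3, whose product loads procollagen for export, rose by a log2 value of 0.28 (edgeR adjusted p = 6.57e-08). PCOLCE, an enhancer of procollagen trimming, fell by 1.58-fold to 6.12 ± 0.238 CPM in siTAF5 against 9.68 ± 0.337 CPM in siNT (SD, n = 3 each; edgeR adjusted p = 6.30e-08). SPARC, a collagen-binding matrix protein, fell by 1.58-fold (edgeR adjusted p = 5.27e-07).

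With the transgenes, most of the pathway genes that passed were lower than in siTAF5 or siNT. In TAF5-ΔE8, 5 rose and 20 fell relative to siTAF5, where 20% of all genes rose and 20.6% fell. Relative to siNT, 6 rose and 22 fell in TAF5-ΔE8, where 30.8% of all genes rose and 31.4% fell. In TAF5-FL, 5 rose and 18 fell relative to siTAF5, where 24.4% of all genes rose and 24.4% fell, and 5 rose and 23 fell relative to siNT, where 27.8% of all genes rose and 26.8% fell. The split for TAF5-FL against siTAF5 was 2 higher and 19 lower with upper-quartile scaling, and 1 higher and 22 lower with library totals only. It was 2 and 18 without TAF5-FL replicate 3, 2 and 17 without siTAF5 replicate 1, and 3 of the genes were higher without siTAF5 replicate 2. In TAF5-ΔE8 against siTAF5, the median log2 fold change of the 37 genes was -0.15, and that of all genes was -0.011. Between TAF5-ΔE8 and TAF5-FL, 11 were higher and 8 lower, where 17.3% of all genes were higher and 19.7% lower, with a median of 0.019 over the list and -0.0089 over all genes. SPARC was at 1.94, 1.89 and 2.16 CPM in TAF5-ΔE8 and 3.66, 3.53 and 3.78 in TAF5-FL, a log2 difference of -0.88 with a standard error of 0.094, close in size to that of CRTAP. PCOLCE was also lower in TAF5-ΔE8 than in TAF5-FL (log2 -0.40, SE 0.074). MIA3 (log2 0.34, SE 0.028) and FKBP7, a prolyl isomerase of the endoplasmic reticulum (log2 0.37, SE 0.06), were higher in TAF5-ΔE8 by about as much as P3H1.

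Most of the collagen chain genes that passed the test were lower in each of the groups with the TAF5 siRNA. Of 30 chain genes listed, 27 were kept, and COL1A2, COL11A1 and COL9A1 were not. Among those kept, COL6A3 and COL16A1 were near the floor, at 2 to 14 and 2 to 15 counts per library. In siTAF5 against siNT, 15 passed, or 55.6% of the 27 beside 49.7% of all genes, and 14 of the 15 were lower, where 25% of all genes were lower. In TAF5-ΔE8, 21 passed and 19 were lower relative to siTAF5, where 40.6% of all genes passed and 20.6% were lower. Relative to siNT, 22 passed and 21 were lower in TAF5-ΔE8, where 62.2% of all genes passed and 31.4% were lower. In TAF5-FL, 20 passed and 16 were lower relative to siTAF5, where 48.8% of all genes passed and 24.4% were lower. Relative to siNT, 22 passed and 21 were lower in TAF5-FL, where 54.6% of all genes passed and 26.8% were lower. The median log2 fold change of the 27 genes was -0.63 in TAF5-ΔE8 against siNT, with -0.00091 over all genes. It was -0.54 in TAF5-FL against siNT, with 0.0062 over all genes. The most abundant were COL4A2, COL4A1, COL6A1 and COL14A1. COL4A1, a chain of basement membrane collagen, had 159, 154 and 148 CPM in TAF5-ΔE8, 150.2, 147 and 144 in TAF5-FL, 189, 183 and 182 in siTAF5 and 202, 201 and 195 in siNT. Its partner chain COL4A2 averaged 200.1 ± 9.65 CPM in TAF5-ΔE8, 194 ± 6.97 in TAF5-FL, 247 ± 8.35 in siTAF5 and 242 ± 6.47 in siNT (SD, n = 3 each). COL4A2 fell in TAF5-FL relative to siTAF5 (log2 -0.35, edgeR adjusted p = 5.63e-08), while siTAF5 against siNT did not pass, with a 95% interval of -0.04 to 0.10. COL6A1, a chain of the microfibrillar collagen, fell in siTAF5 relative to siNT (log2 -0.19, edgeR adjusted p = 0.000449) and in TAF5-FL relative to siTAF5 (log2 -0.37, edgeR adjusted p = 2.34e-07). COL14A1, a fibril-associated collagen, averaged 87.1 CPM in TAF5-ΔE8, 93.3 in TAF5-FL, 133 in siTAF5 and 153 in siNT. Neither COL6A1 nor COL14A1 followed the order of CRTAP, since both were lower in TAF5-FL than in siTAF5. COL2A1, a less abundant chain gene, did follow that order, with no overlap between any groups. It averaged 72.8 CPM in TAF5-ΔE8, 99.0 in TAF5-FL, 91.6 in siTAF5 and 135 in siNT. Between TAF5-ΔE8 and TAF5-FL, 12 chain genes were past the threshold, 44.4% of the 27 beside 37% of all genes. Of these, 3 were higher and 9 lower, and without TAF5-ΔE8 replicate 3 the split was 5 higher and 7 lower.

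**Figure D3:**
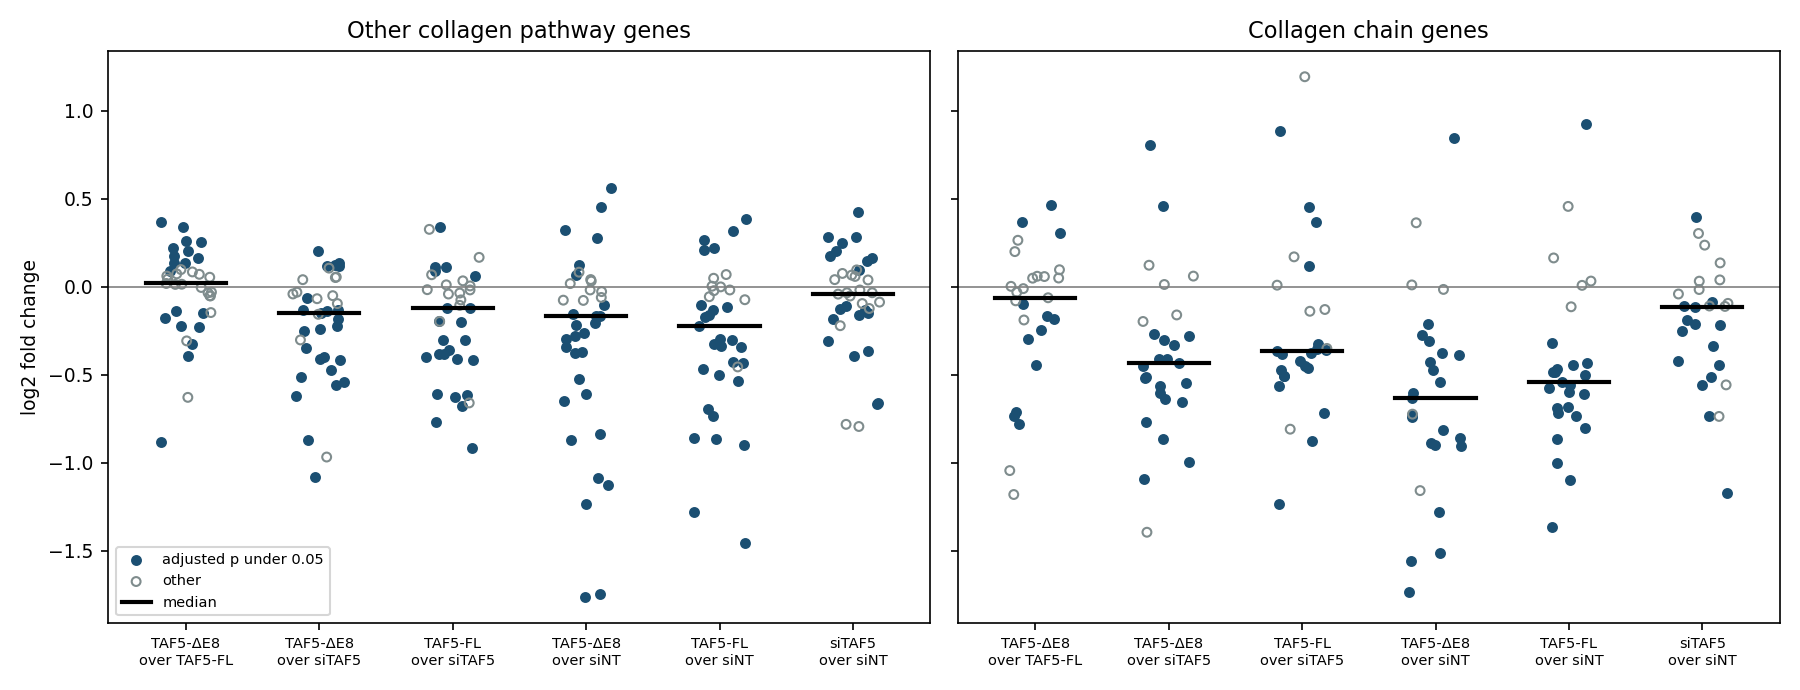
Log2 fold change of each of the 37 other collagen pathway genes (left) and the 27 collagen chain genes (right) in 6 comparisons, with filled points for an adjusted p under 0.05, open points for the rest and a bar at the median. The medians of the chain genes lie lowest against siNT, at -0.63 for TAF5-ΔE8 and -0.54 for TAF5-FL, and near 0 between TAF5-ΔE8 and TAF5-FL, at -0.063.

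The genes that flank CRTAP did not share its course. GLB1, which encodes lysosomal beta-galactosidase, is at chr3:32996609-33097202 on the minus strand, 16.8 kb from CRTAP. Its level was 62.1, 63.3 and 60.4 CPM in TAF5-ΔE8, 47.2, 49.3 and 47.1 in TAF5-FL, 64.2, 63.6 and 64.1 in siTAF5 and 49.1, 47.3 and 47.5 in siNT, with all TAF5-ΔE8 and siTAF5 libraries above the rest. GLB1 rose in siTAF5 relative to siNT (log2 0.42, SE 0.03, edgeR adjusted p = 8.02e-10) and fell in TAF5-FL relative to siTAF5 (log2 -0.42, SE 0.031, edgeR adjusted p = 7.75e-10), opposite to CRTAP in both. Its log2 difference between TAF5-ΔE8 and TAF5-FL was 0.37. SUSD5, on the other side at chr3:33150043-33218810 on the minus strand, 2270 bases from CRTAP, averaged 19.3 ± 0.746 CPM in TAF5-ΔE8, 19.7 ± 0.286 in TAF5-FL, 20.8 ± 1.32 in siTAF5 and 19.6 ± 1.06 in siNT (SD, n = 3 each). Its libraries overlapped between all groups, and in siTAF5 against siNT the 95% interval of the log2 difference was -0.016 to 0.20. With library totals only, SUSD5 passed in TAF5-FL against siTAF5 (edgeR adjusted p = 0.0465).

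**Figure D4:**
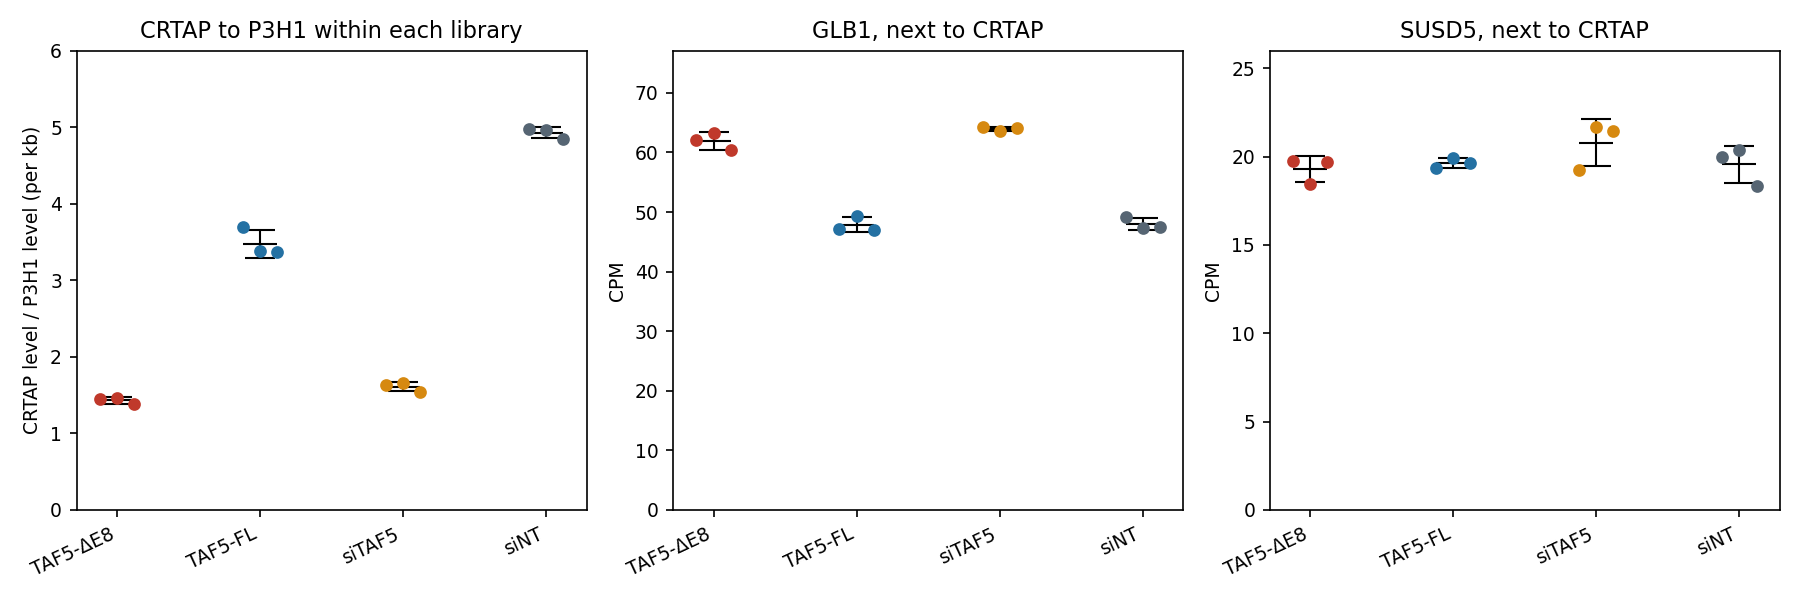
Ratio of CRTAP to P3H1 per kilobase of exon within each library (left), and level in CPM of the neighbouring genes GLB1 (middle) and SUSD5 (right); points are libraries and lines are the mean and SD of 3. The ratio is 1.43 in TAF5-ΔE8, 3.48 in TAF5-FL, 1.61 in siTAF5 and 4.93 in siNT, while GLB1 is higher in TAF5-ΔE8 and siTAF5 than in TAF5-FL and siNT and SUSD5 overlaps between groups.

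The genes most like CRTAP over the 12 libraries were RPS25, ALG13, EEF1D, NAP1L1 and PCBP2. They had the highest Pearson r of log2(CPM + 0.5) with CRTAP among 12475 other genes with a mean log2 CPM of at least 2, with r from 0.997 for RPS25 to 0.993 for PCBP2. These values describe libraries that fall into 4 groups and share their scaling. RPS25, which encodes a protein of the small ribosomal subunit, stood at 55.5% of its siNT mean in TAF5-ΔE8, 79.7% in TAF5-FL and 61.5% in siTAF5. PCBP2, an RNA-binding protein gene, was at 69.2% in TAF5-ΔE8, 90.2% in TAF5-FL and 74% in siTAF5. Each of the 5 genes had the group order of CRTAP, which their choice by correlation with CRTAP made likely. Each was less far below siNT than CRTAP in every group. No member of the collagen lists was among them.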

How the data were processed

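The deposited table holds estimated counts per gene, not normalized, as its values show: 45.3% were not whole to within 1e-09. Partek 10.0.23.0531, STAR 2.7.0f, cutadapt 1.18, DESeq2 and the build hg38 appear in the submitters' processing notes without roles or order. How reads were assigned to genes, with which annotation and strand setting, was not given in the sources used here. Rounding to whole numbers moved a library total by at most 91.27. The analysis had been planned for counts, and the same count model was used for these estimated counts. Library totals were 41.8 to 62.5 M. Intervals cover the spread between libraries, which exceeded counting error (chi-square per degree of freedom 2.61 to 5.16 between replicates).

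Low genes were dropped with filterByExpr at a minimum count of 10. The 12 libraries were fitted in 1 edgeR 4.0.16 quasi-likelihood model (R 4.3.3) with TMM scaling and a mean per group. Tests were two-sided, with Benjamini-Hochberg adjustment over 19424 genes and a threshold of 0.05. The standard error is the size of the log2 fold change divided by the square root of F. The model was checked on simulated data, in which false calls were somewhat more frequent than the nominal rate. Alternatives used RLE, upper-quartile or no scaling factors, no filter, DESeq2 1.42.0, limma 3.58.1 voom, the compared groups alone, the replicate number as a block, and each library left out in turn. Lengths are unions of GENCODE 29 exons. Gene positions are the table's own on hg38, with 1 taken from the stop.

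The members, lists and tests were chosen with earlier results of these data known. COL2A1 was named later, for its group order. Named genes were the members, TAF5, 4 of the pathway list with the smallest adjusted p in siTAF5 against siNT, 4 of that list with the largest absolute log2 difference between TAF5-ΔE8 and TAF5-FL among those with a mean log2 CPM of at least 2, the 4 most abundant collagen genes, the nearest kept protein-coding gene on each side of CRTAP, and the 5 genes most correlated with it.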

Additional observations from a re-analysis of the deposited data

Results flagged for a closer look

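The libraries of TAF5-ΔE8 and TAF5-FL lay on opposite sides of siTAF5 for CRTAP. All 3 TAF5-ΔE8 libraries, at 92.9, 93.9 and 88.5 CPM, were below all siTAF5 libraries, at 110.2, 113 and 108 CPM. All 3 TAF5-FL libraries, at 179.9, 172 and 167 CPM, were above them. The log2 difference between TAF5-ΔE8 and TAF5-FL was -0.91. This difference was not tested, since CRTAP was chosen by it.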

How the results depend on the processing

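Over 1680 values recomputed under the alternatives, 1625 were labelled as kept. A single-gene value was kept if its direction and side of the threshold held, or if it stayed within the spread between replicates. A count of genes was kept if it stayed within a set fold of the main count, so a kept count could still differ. CRTAP in siTAF5 against siNT ran from -1.22 to -1.15 on the log2 scale over 14 alternatives, with an adjusted p of at most 5.86e-13. CRTAP in TAF5-ΔE8 against TAF5-FL ran from -0.94 to -0.88. Of 46 tested comparisons of members, 29 passed, 23 of them under every alternative, and the 6 others and 5 gained calls are given with their genes above. The count of members for TAF5-ΔE8 against siTAF5 was 3 to 5 with single libraries left out. CRTAP in TAF5-FL against siTAF5 was 0.60 with library totals only. In TAF5-ΔE8 against TAF5-FL, a sign change was labelled only for values past the threshold. All labelled sign changes were in other comparisons, of values near 0 that had not passed. With library totals only, they were 0.014 for P3H2 and 0.015 for FKBP10 in siTAF5 against siNT, and -0.038 for PLOD3 and -0.0060 for SERPINH1 in TAF5-FL against siTAF5. With no filter, they were -0.0051 for PLOD3 in TAF5-FL against siTAF5 and -0.0048 for PPIB in TAF5-ΔE8 against siNT, and with upper-quartile scaling -0.0067 and -0.027. With single libraries left out, the ranges that crossed 0 in siTAF5 against siNT were -0.082 to 0.045 for P3H2 and -0.0080 to 0.053 for COL4A2. In TAF5-FL against siNT they were -0.044 to 0.0040 for P3H3 and -0.027 to 0.031 for SERPINH1, and in TAF5-FL against siTAF5 -0.018 to 0.038 for PLOD3. In TAF5-ΔE8 they were -0.0045 to 0.028 for PPIB against siNT and -0.028 to 0.0080 for SERPINH1 against siTAF5. The causes were not tested. Alternatives for the collagen chains and the named genes outside the members were added after the data had been seen.

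Deviations of same-numbered libraries of different groups had correlations from -0.089 to 0.12. The only pair over 0.1 was that of siTAF5 and siNT replicate 1. For this reason, and since no label ties the numbers to a shared culture or day, they were not used as pairs. Still, 9 of 12 libraries correlated best with their own number, a hint from the data that same-numbered libraries may share something. With a replicate block, CRTAP in siTAF5 against siNT was -1.18 (adjusted p = 8.91e-16) and CRTAP in TAF5-ΔE8 against TAF5-FL was -0.91. The block brought P3H3 in TAF5-ΔE8 against siTAF5 (adjusted p = 0.0474) and PLOD1 in TAF5-FL against siTAF5 (adjusted p = 0.0389) past the threshold. The count of members thus became 6 in each of these comparisons, and no other tested call of a member changed. Counts of pathway and chain genes also shifted, for example to 16 lower chain genes in siTAF5 against siNT. No spike-in was used in the scaling here, so a shift common to all genes would not show.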

Other observations

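Several members share a start region or bases with another gene, and since it is not known whether counting used strand, reads of overlapping genes on opposite strands may not have been told apart. These genes were looked at after the values of the members had been seen. P3H1 starts 161 bases from C1orf50, which runs in the other direction without overlap. C1orf50 rose in siTAF5, to 16.6 ± 0.645 CPM against 10.4 ± 0.0968 CPM in siNT (SD, n = 3 each; log2 0.67, edgeR adjusted p = 1.15e-09), as P3H1 did, and its log2 difference between TAF5-ΔE8 and TAF5-FL was 0.34. Unlike P3H1, C1orf50 in TAF5-FL was above all siNT libraries, at 13.9, 14.5 and 14.9 CPM in TAF5-FL against 10.5, 10.4 and 10.3 CPM in siNT.

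P3H4 starts 76 bases from FKBP10, a prolyl isomerase gene of the collagen pathway that runs in the other direction. FKBP10 averaged 152 ± 2.49 CPM in TAF5-ΔE8, 168 ± 6.15 in TAF5-FL, 193 ± 3.05 in siTAF5 and 196 ± 3.53 in siNT (SD, n = 3 each). It fell in TAF5-FL relative to siTAF5 (log2 -0.20, edgeR adjusted p = 3.73e-06), as P3H4 did, whereas its siTAF5 and siNT libraries overlapped. Of genes that overlap a member, SNX22 shares 1742 bases with PPIB on the opposite strand, GPR162 shares 1566 bases with P3H3 on the same strand, P3H2-AS1 shares 1494 bases with P3H2 on the opposite strand, the pseudogene MTAPP2 shares 832 bases with P3H2 on the same strand and ZNHIT1 shares 256 bases with PLOD3 on the opposite strand. The longest overlap, of 35765 bases, is that of PLOD2 with a lncRNA on the opposite strand that has no gene name in the table. In siNT, SNX22 averaged 22 CPM beside 174 for PPIB, and GPR162 averaged 3.17 CPM beside 50.5 for P3H3. ZNHIT1 averaged 53.6 CPM in siNT beside 46.7 for PLOD3, the closest levels among these pairs, and none of its comparisons with siTAF5 or siNT passed.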
